A study of Mus musculus with 44 samples.

Results

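Penk, Pdyn, Tac1, Nts and Cartpt encode the precursors of the neuropeptides by which projection neurons of the striatum are told apart. They were taken by gene symbol from both count tables of the study, and were 5 of 55487 gene identifiers. All 5 of the 5 passed the filter on low counts in the bulk and in the sorted libraries, so every member was tested.

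A neuropeptide gene is translated into a precursor protein that is cut at pairs of basic residues in dense-core vesicles, and the released peptides act on G protein-coupled receptors. In the striatum, which includes the nucleus accumbens, Penk (enkephalins) is the classical gene of neurons that express the dopamine receptor gene Drd2, while Pdyn (dynorphins) and Tac1 (substance P and neurokinin A) are those of neurons that express Drd1. Nts (neurotensin and neuromedin N) and Cartpt (the CART peptides) are known from subsets of accumbens neurons. RXRa is a nuclear receptor that binds DNA with itself or with partner receptors.

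RNA was measured in mouse nucleus accumbens after viral delivery of RXRa or of a fluorescent control. The bulk libraries, from males, were 4 with HSV-GFP and 4 whose RXRa vector was also HSV, a herpes simplex virus. The sorted libraries were nuclei labelled D1 or D2 from females and males that received AAV9-CAG-DIO-EGFP or AAV9-CAG-DIO-EGFP-P2A-RXRa, adeno-associated viruses with an insert that needs Cre recombinase. In D1 there were 5 EGFP and 4 RXRa libraries from females and 5 and 4 from males, and in D2 4 and 4 from females and 5 and 4 from males. The sorted controls therefore also carried a virus and a Cre driver, which, like the animals' age, the gate of the sort and the time after infusion, is not given in the sources used here. Nothing says whether replicates were separate animals, so p-values measure the spread between libraries.

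The sequences of the peptides distinguish the genes and show what the counted transcripts encode. Each stretch below is taken from the longest reading frame of the GENCODE M21 transcripts, 5′ to 3′, with the peptide's codons in capitals between 6 flanking bases. The Penk reading frame of 268 codons holds the Met-enkephalin sequence at 6 places and that of Leu-enkephalin at 1. Met-enkephalin copies 4 and 6 are not followed by a pair of basic residues, so they are extended at that end. The Pdyn reading frame, 248 codons, holds the Met-enkephalin sequence 0 times and the Leu-enkephalin core, with which its peptides, not all of them dynorphins, begin, 3 times. Tac1 (130 codons) holds 2 tachykinin C-termini, the first that of substance P and the second that of neurokinin A. Nts (169 codons) holds 2 copies of the end shared by neuromedin N and neurotensin. For Cartpt, 129 codons, no stretch is shown.
Penk, second Met-enkephalin, codons 107 to 111: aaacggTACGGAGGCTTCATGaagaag
Penk, Leu-enkephalin, codons 231 to 235: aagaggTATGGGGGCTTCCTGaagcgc
Pdyn, first Leu-enkephalin core, codons 166 to 170: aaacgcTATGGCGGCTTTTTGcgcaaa
Tac1, substance P end, codons 64 to 68: cagcagTTCTTTGGATTAATGggcaag
Tac1, neurokinin A end, codons 103 to 107: gattccTTTGTTGGACTAATGggcaaa
Nts, neurotensin end, codons 159 to 162: agaaggCCCTACATTCTCaagagg

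Promoter windows were searched for motifs of factors known to act on striatal peptide genes, and for those of the receptor. RefSeq windows (GRCm38.p6) reach from 250 bases before to 50 after a transcript's start, and 4 of the 5 members matched, with 5 windows, 2 of them for Pdyn. Penk had no window and was not searched. Motifs were sought on both strands: TGACGTCA, the cAMP response element (CRE), its half-site TGACG or CGTCA, the AP-1 site TGANTCA, the receptor half-site AGGTCA and the direct repeat of that half-site with 1 base between (DR1). Of 32851 windows, 1.79% held the CRE, 20.8% its half-site, 7.81% AP-1, 16.3% AGGTCA and 0.0396% the direct repeat. The CRE lay in the Cartpt window and overlaps its own half-sites, AP-1 lay in that of Nts, and the CRE half-site also lay in those of Tac1 (at 2 places) and Nts. Neither AGGTCA nor the direct repeat was found in any of the 5 windows, which says only that these letters are not in them. The matches are shown in capitals. Nts and the first Tac1 stretch end at the base before the annotated GENCODE gene. The second Tac1 stretch and the Cartpt stretch lie within the GENCODE gene. They end 25 and 93 bases before the RefSeq start of their windows.
Nts, chr10:102490487-102490668, minus strand: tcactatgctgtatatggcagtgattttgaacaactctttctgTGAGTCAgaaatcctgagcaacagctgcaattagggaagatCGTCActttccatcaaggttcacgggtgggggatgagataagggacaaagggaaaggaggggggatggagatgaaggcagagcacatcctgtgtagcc
Tac1, chr6:7554811-7554878, plus strand: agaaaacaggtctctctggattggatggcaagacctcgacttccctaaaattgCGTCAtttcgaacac
Tac1, chr6:7555006-7555035, plus strand: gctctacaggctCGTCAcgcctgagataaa
Cartpt, chr13:99900777-99900806, minus strand: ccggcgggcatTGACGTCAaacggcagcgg

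All 5 are protein-coding genes, placed here on GRCm38 with GENCODE M21. Penk (ENSMUSG00000045573) lies at chr4:4133531-4138819 on the minus strand and is overlapped on the plus strand by the noncoding A830012C17Rik. Whether counting used strand is not given in the sources used here, so the 2 genes may share reads and Penk values are uncertain to that extent. Pdyn (ENSMUSG00000027400) lies at chr2:129686565-129699844 on the minus strand, Tac1 (ENSMUSG00000061762) at chr6:7554879-7565834 on the plus strand, Nts (ENSMUSG00000019890) at chr10:102481756-102490486 on the minus strand and Cartpt (ENSMUSG00000021647) at chr13:99898489-99901091 on the minus strand.

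Total counts ranged from 21567565 to 29167142 per bulk library and from 12211655 to 27757463 per sorted library with a group. The vector-encoded RXRa sequence had 0 counts in each bulk GFP library, 567 to 914 in the bulk RXRa libraries, at most 17 in the sorted EGFP libraries and at least 1216 in the sorted RXRa libraries. Levels are given as CPM, counts per 1000000 of a library's TMM-scaled total. Sorted libraries also held counts along genes silent in all bulk libraries (0 counts in each), in proportion to the length of the gene body. Their median density, over 1576 such protein-coding genes on autosomes, each at least 5 kb long, was used as a measure of background. It was 0.529 ± 0.0466 CPM per kb of library total in D1 EGFP (SD, n = 10), 0.466 ± 0.0701 in D1 RXRa (n = 8), 0.551 ± 0.0258 in D2 EGFP (n = 9) and 0.432 ± 0.0889 in D2 RXRa (n = 8). A member's expected background is this density, on the TMM scale, times its gene body, and it is given beside the levels below.

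In bulk tissue Penk was the most abundant of the 5 transcripts and Nts the least. Per kb of exon, the levels over the 8 libraries were 618 ± 58.6 CPM per kb for Penk (SD, n = 8), 109 ± 13.3 for Pdyn, 71.2 ± 9.33 for Tac1, 46.6 ± 12.9 for Cartpt and 14.1 ± 4.03 for Nts. The only neighbours in this order whose ranges overlapped were Tac1, from 57.3 to 81.7, and Cartpt, from 26.1 to 69.3.

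In sorted nuclei the order of the genes depended in part on the unit. Per kb of exon, D1 means were 45.7 CPM for Penk, 13.5 for Pdyn and 11.998 for Tac1. This was also the leading order in bulk. In D2, Tac1 (8.22) was above Pdyn (4.17) in that unit. Per kb of gene body, the bulk means were 191 CPM for Penk, 23.8 for Pdyn, 22.8 for Cartpt and 22.1 for Tac1. Counts of genes silent in bulk followed the gene body and not the exons, so sorted levels were compared between genes per kb of gene body. In the 18 D1 libraries Penk had 14.1 ± 8.49 CPM per kb (SD, n = 18), followed by Tac1 at 3.72 ± 1.30, Pdyn at 2.93 ± 0.875, Cartpt at 1.64 ± 0.511 and Nts at 0.639 ± 0.107. The ranges of the 3 leading genes ran into one another, from 4.40 to 40.2 in Penk, 1.98 to 6.80 in Tac1 and 1.74 to 4.95 in Pdyn. In the 17 D2 libraries Penk had 91.8 ± 51.0 CPM per kb (SD, n = 17), with its lowest library at 34.8, above every library of the other members. Tac1 had 2.55 ± 1.25 there, Cartpt 1.88 ± 1.02, Pdyn 0.907 ± 0.267 and Nts 0.827 ± 0.283, and each of these ranges overlapped the next. Against the silent genes, Nts was higher than 80.8% of them in D1 and 96.6% in D2, and Pdyn than 98.2% in D2. The other levels were above at least 99.87% of silent genes, and Penk was above all 1576 in both populations.

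**Figure D1:**
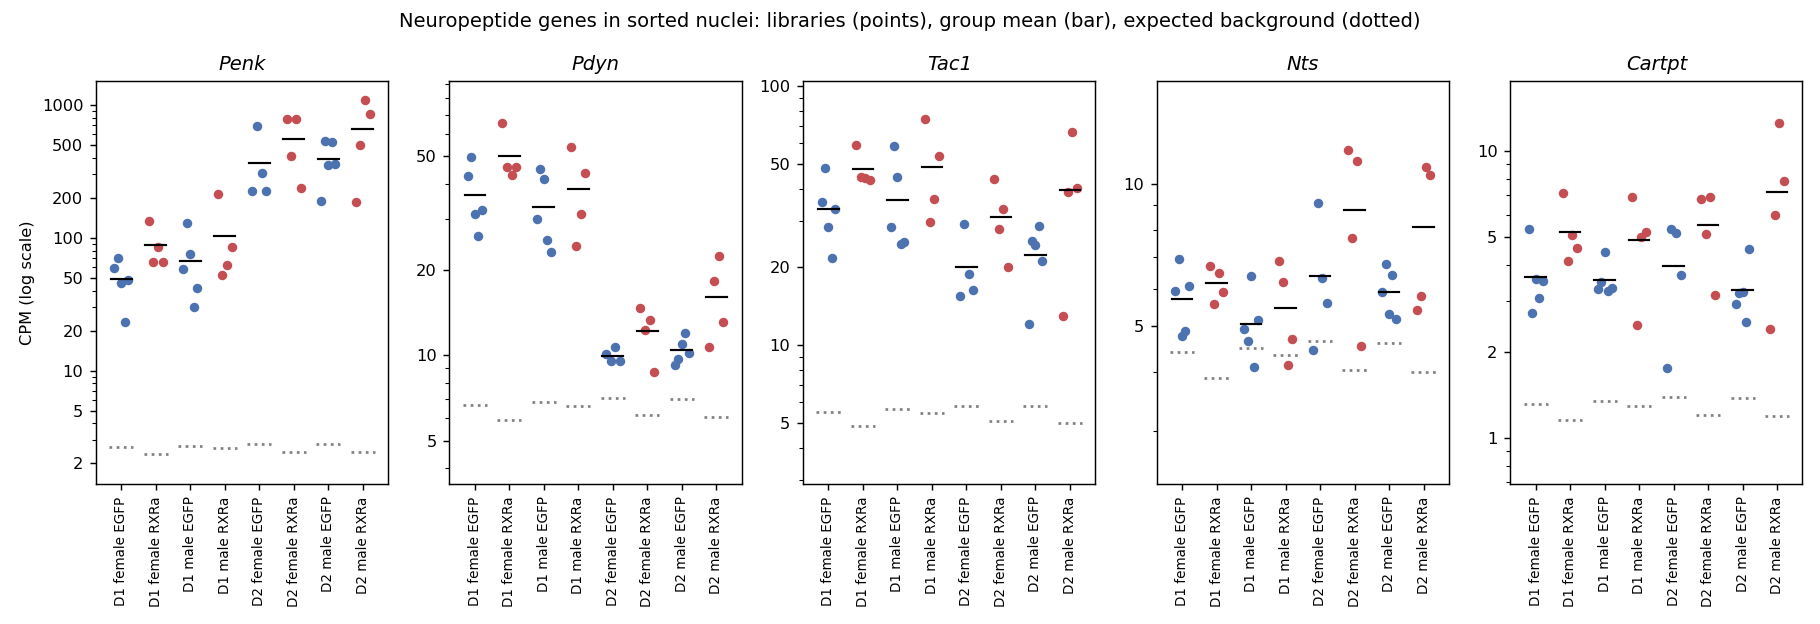
CPM of the 5 genes in each sorted library (vertical log axis) by population, sex and vector, with EGFP in blue and RXRa in red. Bars are group means and dotted lines the mean expected background. Penk is high in D2, Pdyn in D1, and Nts lies near its background line in D1 and under EGFP in D2.

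The contrast of D2 with D1 nuclei under EGFP asks how the members differ between the 2 populations without RXRa. Penk was 6.61-fold higher in D2 and Pdyn was at 0.293 of its D1 level, and both passed the test. These are 2 of 5 members, where 0.121% of all 43902 genes were called. Drd2 and Adora2a, the genes by which D2 neurons are known, went the same way as Penk (log2 fold changes 3.47, SE 0.16, and 1.81, SE 0.19), and Drd1 went the way of Pdyn (-2.03, SE 0.24). Their edgeR adjusted p-values were 1.75e-17, 1.30e-07 and 2.85e-06.

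Penk had 23.3 to 128.6 CPM in the 10 D1 EGFP libraries, with a median of 52.9, and 188.9 to 697.7 in the 9 D2 EGFP libraries, with a median of 355. The groups did not overlap. The log2 fold change was 2.73 (SE 0.33, edgeR adjusted p 4.27e-06). D1 nuclei still held Penk counts beyond the expected background of 2.70 CPM, at 58.0 ± 29.7 CPM (SD, n = 10). In the same D1 libraries Drd2 had 60.3 ± 7.33 CPM against an expected 34.5, and its level in D2 was 681.1 ± 151.5 (SD, n = 9). Whether Drd2-expressing nuclei in the D1 sort take part in the Penk level was not tested.

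Pdyn had 23.1 to 49.9 CPM in D1 EGFP, with a median of 31.9, and 9.20 to 11.96 in D2 EGFP, with a median of 10.1. No D2 library reached a D1 library. On the log2 scale the change was -1.77 (SE 0.16, edgeR adjusted p 2.86e-09). Its expected background was 6.77 CPM in D1 and 7.04 in D2, so most of the D2 level lay within what silent genes of that length had. With the expected background subtracted from each library, an alternative chosen after the data were seen, the log2 difference was -2.99 (SE 0.21, limma adjusted p 3.67e-11).

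Tac1, the other classical D1 gene, did not pass. It had 21.7 to 58.4 CPM in D1 EGFP (median 31.0) and 12.01 to 29.3 in D2 EGFP (median 21.1). The lower D2 libraries lay below every D1 library and the upper ones among them. The log2 fold change was -0.72 (SE 0.23, edgeR adjusted p 0.261). Of 9 alternatives 1 passed, background subtraction (-0.88, SE 0.24, limma adjusted p 0.0392). It covered another set of genes, 11130 with a mean above 10 CPM in bulk, of which 537 were called.

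Nts and Cartpt overlapped between the populations and did not pass. Nts had 4.09 to 6.92 CPM in D1 EGFP (median 5.04) and 4.44 to 9.09 in D2 EGFP (median 5.89), beside expected backgrounds of 4.45 and 4.63. Its log2 fold change was 0.18 (SE 0.16, edgeR adjusted p 0.687). Cartpt had 2.72 to 5.36 CPM (median 3.41) and 1.76 to 5.33 (median 3.22), with expected backgrounds of 1.33 and 1.38 CPM. Its log2 fold change was 0.00 (SE 0.23, edgeR adjusted p 1.00), and its sign changed between settings. These misses do not show equal levels.

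Under RXRa, Penk and Pdyn again passed the test between the populations. Penk had a log2 change of 2.66 (SE 0.36; edgeR adjusted p 2.80e-05), with 52.5 to 212 CPM in D1 RXRa (median 75.4) and 184 to 1079 in D2 RXRa (median 638). One D1 library, male RXRa 1 at 212 CPM, lay above the lowest D2 library, male RXRa 1 at 184. Pdyn had a log2 change of -1.65 (SE 0.17; edgeR adjusted p 5.49e-08), with 24.2 to 65.7 CPM in D1 RXRa and 8.72 to 22.2 in D2 RXRa, and no overlap. Nts also passed here, at 0.52 (SE 0.17, edgeR adjusted p 0.0453), which makes 3 of 5 members where 8.36% of all genes were called. Tac1 (-0.46, SE 0.24, edgeR adjusted p 0.219) and Cartpt (0.30, SE 0.23, edgeR adjusted p 0.445) did not pass.

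The Nts call under RXRa was unstable. It held in 2 of 9 alternatives, whose adjusted p-values ran from 0.0164 to 0.301, and in 6 of the 16 fits that left out a library. The libraries without which it was lost were D1 female RXRa 2, 4 and 5 (edgeR adjusted p 0.0880, 0.0764 and 0.0762), D1 male RXRa 2, 3 and 5 (0.0795, 0.119 and 0.0792), D2 female RXRa 2 and 4 (0.113 and 0.164) and D2 male RXRa 3 and 5 (0.151 and 0.147). The count of called genes of this contrast moved as well, from 118 without D2 female RXRa 4 to 9886 without D2 male RXRa 1, while Penk and Pdyn passed in all 16 of these fits. Both also passed in all 19 such fits under EGFP and in every one of 9 alternatives under either vector.

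**Figure D2:**
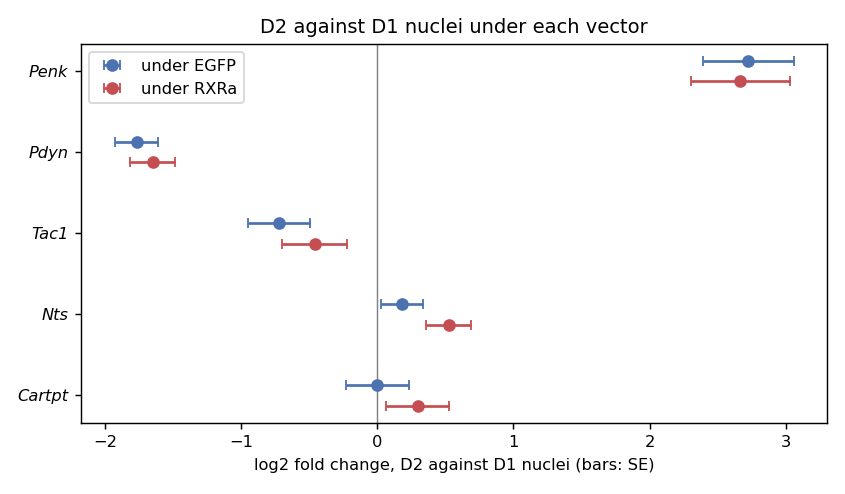
Log2 fold change of D2 against D1 nuclei for the 5 genes, under EGFP (blue) and RXRa (red), with bars of 1 SE. Penk stands at 2.73 and 2.66 and Pdyn at -1.77 and -1.65, while Cartpt under EGFP sits at 0.

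Ratios within a library do not depend on its scaling. The log2 ratio of Penk to Tac1 counts was 0.65 ± 0.31 in D1 EGFP (SD, n = 10), 0.88 ± 0.32 in D1 RXRa (n = 8), 4.08 ± 0.27 in D2 EGFP (n = 9) and 4.01 ± 0.34 in D2 RXRa (n = 8). Every D1 library was at or below 1.51 and every D2 library at or above 3.56, so that the populations did not overlap. Penk to Pdyn likewise separated the populations, with 0.63 ± 0.45 in D1 EGFP and 5.09 ± 0.62 in D2 EGFP. Between vectors within a population the ranges of the Penk to Tac1 ratio overlapped, from 0.10 to 1.14 and 0.56 to 1.51 in D1 and from 3.78 to 4.57 and 3.56 to 4.54 in D2.

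Within a population Penk and Tac1 were high in the same libraries, and other pairs of members less so. Across the 17 D2 libraries the Pearson r of Penk with Tac1, on log2(CPM + 1), was 0.94 (Spearman 0.95, and 0.92 without the 2 libraries farthest from the Penk median), and that of Tac1 with Drd1 was 0.94. In the 18 D1 libraries Penk with Tac1 had 0.95 and Tac1 with Drd1 0.96. The pairs of members ran from 0.27 (Nts with Cartpt) to 0.95 in D1, where Nts had 0.47 with Penk and 0.48 with Tac1, and from 0.57 (Nts with Pdyn) to 0.94 in D2. In the 8 bulk libraries they ran from -0.41 (Nts with Tac1) to 0.87 (Penk with Pdyn), and Penk with Tac1 had -0.27. Each member's level ran against the silent-gene density of its library, with r from -0.81 (Pdyn and Tac1) to -0.51 (Nts) in D1 and from -0.63 (Cartpt) to -0.47 (Pdyn) in D2. The points share their library's depth, scaling and background, and these values describe the libraries only.

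**Figure D3:**
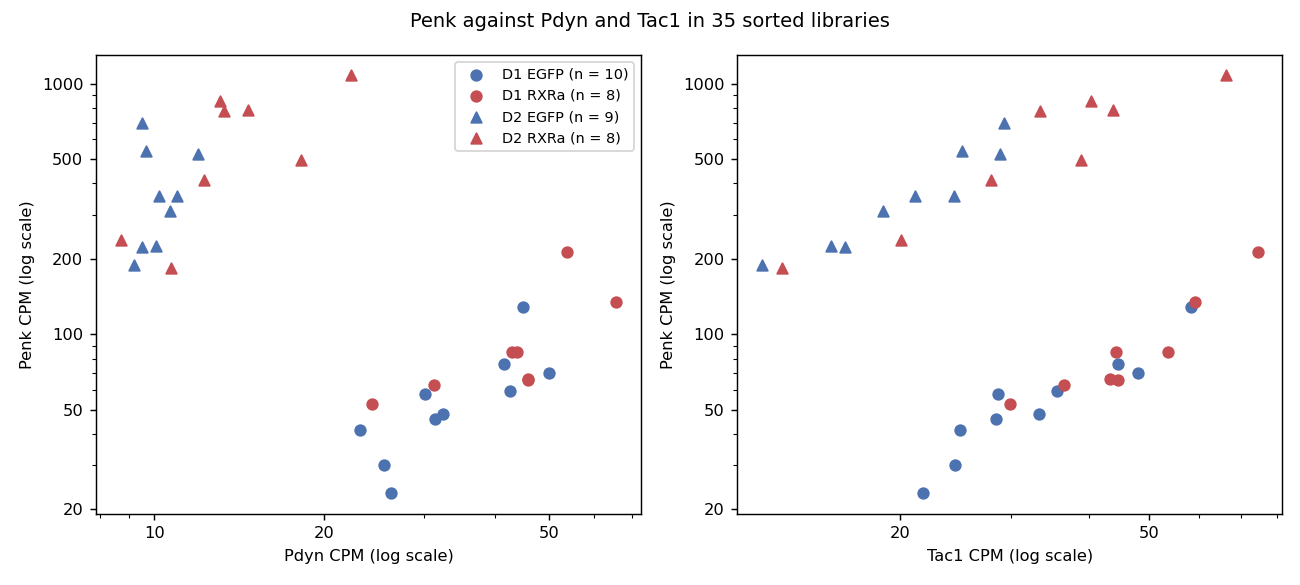
Penk against Pdyn (left) and Tac1 (right) CPM on log axes, 1 point per sorted library, with D1 as circles, D2 as triangles, EGFP blue and RXRa red. The populations form separate bands, and within each band Penk and Tac1 are high in the same libraries (r 0.95 in D1 and 0.94 in D2).

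The genes whose levels were most like each member's were found over 19939 genes with a mean of at least 5 CPM. Over the 35 sorted libraries these were, for Penk, Gpr6 (r 0.99), Adora2a (0.97) and the overlapping A830012C17Rik (0.93). Pdyn was most like Drd1 (0.94), Sfxn1 (0.94) and Slc35d3 (0.93), and Tac1 was most like Chrm4 (0.93), Slc35d3 (0.86) and Drd1 (0.86). For Nts they were Gmps (0.91), Tagln3 (0.90) and Copb2 (0.89), and for Cartpt Hap1 (0.86), Lrrn3 (0.86) and Btg1 (0.86). Over the 8 bulk libraries and 12800 genes the leading genes were Tmem74b, Lzts3 and Necab2 for Penk (each 0.97), and Sertad4 (0.97), Hyou1 (0.96) and Nufip1 (0.95) for Pdyn. Those of Tac1 were Mme, a peptidase that degrades enkephalins (0.99), Uba3 (0.98) and Dnaja2 (0.97). Nts was most like Htr4 (0.97), Ccl12 (0.94) and Sema3g (0.94), and Cartpt like Bend7 (0.99), Ip6k2 (0.98) and Atg9b (0.96). The sorted values pool D1 with D2 libraries, so the difference between the populations enters them. The bulk genes are the highest of 12800 over only 8 libraries, so high values are partly a matter of selection. No test was made, and shared regulation cannot be read from these lists.

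The RXRa comparison in D2 asks whether these genes differ with the overexpressed receptor in that population. All 5 members had higher values with RXRa. Their log2 fold changes had a median of 0.67, beside -0.04 for all genes, and 3 passed the test, Tac1, Nts and Cartpt. Of all 43902 genes 22.1% were called, and those called higher were 14.9% of all genes. None of the 3 calls held when the background density was a covariate, where 0 genes were called. The density itself was lower in the D2 RXRa libraries (0.432 ± 0.0889) than in the D2 EGFP libraries (0.551 ± 0.0258). Vector and density therefore cannot be told apart by that fit. The part of the density in these differences was not tested.

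Tac1 had 15.5, 29.3, 18.8 and 16.3 CPM in D2 female EGFP 1, 3, 4 and 5, and 43.7, 27.9, 33.5 and 20.1 in D2 female RXRa 2, 3, 4 and 5. In males it had 12.01, 25.1, 24.4, 28.8 and 21.1 CPM in EGFP 1 to 5, and 12.9, 38.9, 66.3 and 40.4 in RXRa 1, 2, 3 and 5. RXRa male 3 was the highest library and RXRa male 1 was among the lowest, so the groups overlapped in both sexes. On the log2 scale the change was 0.74 (SE 0.24, edgeR adjusted p 0.0287), and 0.21 (SE 0.26, edgeR adjusted p 1.00) with the density as a covariate. The call was lost without female EGFP 1 (edgeR adjusted p 0.0603), female EGFP 5 (0.0614), female RXRa 2 (0.0644), female RXRa 4 (0.0807), male EGFP 1 (0.0570), male RXRa 3 (0.102) or male RXRa 5 (0.0666).

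Nts had 4.44, 9.09, 6.34 and 5.61 CPM in D2 female EGFP 1, 3, 4 and 5, and 11.8, 7.70, 11.2 and 4.54 in D2 female RXRa 2, 3, 4 and 5. Male EGFP 1 to 5 had 5.89, 6.78, 5.30, 6.41 and 5.19, and male RXRa 1, 2, 3 and 5 had 5.40, 5.78, 10.9 and 10.4. The RXRa libraries split into 4 above 10 CPM and 4 among the controls. The log2 fold change was 0.45 (SE 0.16, edgeR adjusted p 0.0472), and 0.15 (SE 0.19) with the covariate. Its expected background fell from 4.63 to 4.02 CPM between the vectors. The call held in 7 of 17 fits without a library. It was lost without female EGFP 1, 4 or 5 (edgeR adjusted p 0.111, 0.0658 and 0.0908), female RXRa 2 or 4 (0.113 and 0.159), male EGFP 1, 3 or 5 (0.0686, 0.0695 and 0.0661) or male RXRa 3 or 5 (0.136 and 0.140).

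Cartpt had 1.76, 5.33, 5.17 and 3.69 CPM in D2 female EGFP 1, 3, 4 and 5, and 6.78, 5.15, 6.93 and 3.15 in D2 female RXRa 2, 3, 4 and 5. In males the values were 2.92, 3.20, 3.22, 2.53 and 4.56 in EGFP 1 to 5, and 2.39, 5.97, 12.5 and 7.88 in RXRa 1, 2, 3 and 5. Of the male RXRa libraries 3 lay above all controls and 1 below them. On the log2 scale the change was 0.77 (SE 0.24, edgeR adjusted p 0.0242), and 0.28 (SE 0.27) with the covariate. These levels rest on few reads, from 32 to 166 counts per library. The call was lost without female EGFP 1 (edgeR adjusted p 0.0591), female RXRa 4 (0.0876), male RXRa 3 (0.0877) or male RXRa 5 (0.0652).

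Penk, the member with the most counts in D2, did not pass. It had 224, 698, 309 and 224 CPM in D2 female EGFP 1, 3, 4 and 5, and 789, 414, 782 and 237 in D2 female RXRa 2, 3, 4 and 5. Male EGFP 1 to 5 had 189, 539, 355, 522 and 358, and male RXRa 1, 2, 3 and 5 had 184, 495, 1079 and 852. The RXRa libraries held both the highest and the lowest value of the population. The log2 fold change was 0.67 (SE 0.33, edgeR adjusted p 0.137). It was -0.21 (SE 0.34) with the density as a covariate and -0.13 (SE 0.29, limma adjusted p 0.874) with background subtraction, so its direction turned. Leaving out 1 library, female EGFP 3 (edgeR adjusted p 0.0412) or male RXRa 1 (0.0423), made it pass.

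Pdyn stood at the threshold, with a log2 change of 0.45 (SE 0.17; edgeR adjusted p 0.0516). It had 10.1, 9.52, 10.6 and 9.50 CPM in D2 female EGFP 1, 3, 4 and 5, and 14.6, 12.2, 13.3 and 8.72 in D2 female RXRa 2, 3, 4 and 5. In males the EGFP libraries 1 to 5 had 9.20, 9.68, 10.96, 11.96 and 10.2, and RXRa 1, 2, 3 and 5 had 10.7, 18.2, 22.2 and 13.1. Each sex had 3 RXRa libraries above all its controls. The value was 0.10 (SE 0.19) with the covariate. Without female RXRa 5, male EGFP 4 or male RXRa 1 Pdyn passed (edgeR adjusted p 0.0360, 0.0397 and 0.0162).

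Called members in D2 numbered 0 without female EGFP 1, female RXRa 4, male RXRa 3 or male RXRa 5, 1 without female EGFP 5, female RXRa 2 or male EGFP 1, and 5 without male RXRa 1. Without 1 library the count of all called genes ran from 0 (female RXRa 4) to 14766 (male RXRa 1). With library totals alone 1 member, Cartpt, was called, the median of all genes was -0.20 in place of -0.04, and the members' median was 0.47. Among all calls, 67.6% were higher under TMM and 18.1% with library totals alone.

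Other genes moved in the D2 RXRa libraries beside the members. Of the D2 neuron markers 4 of the 4 tested were higher and passed, Drd2 by 0.75 (SE 0.16) and Gpr6 by 0.80 (SE 0.28). The D1 markers Drd1 (0.89, SE 0.25), Chrm4 (0.98, SE 0.32) and Sfxn1 (0.22, SE 0.07) were also higher, and Eya1 was lower (-0.16, SE 0.06). All 6 markers of projection neurons in general had higher values and 5 passed, Gad2 by 0.64 (SE 0.17). All 5 astrocyte markers had lower values and 2 passed, Aqp4 (-0.31, SE 0.10) and Gfap (-0.33, SE 0.12). Of 6 cortical neuron markers 3 had higher values and 3 lower ones, with a median of -0.05, and 2 passed as lower. All 4 endothelial markers had lower values and 1 passed. Among 5 microglia markers 1 passed as higher and 1 as lower. Shares of all genes called were 14.9% higher and 7.14% lower. The summed D2 markers ranged from 572.8 to 1025 CPM in D2 EGFP libraries and from 705.5 to 1961 in D2 RXRa libraries, and no marker was at 0. The summed astrocyte markers ranged from 130.2 to 189.6 CPM and from 110.5 to 148.0. The edgeR adjusted p-values of the genes named here lay between 0.0111 and 0.0459 and were 1.00 with the density covariate. The part of these markers in the members' values was not tested.

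In D1 the same comparison gave higher values with RXRa for all 5 members, and none passed the test. The log2 fold changes were 0.73 (SE 0.33) for Penk, 0.33 (SE 0.15) for Pdyn, 0.48 (SE 0.22) for Tac1, 0.11 (SE 0.16) for Nts and 0.48 (SE 0.22) for Cartpt, with edgeR adjusted p-values from 0.590 to 0.845. Of the members 0 were called, where 0% of all genes were, by edgeR as by DESeq2. At an unadjusted p under 0.05, 4 of 5 passed, beside 8.01% of all genes. Their median was 0.48, beside -0.01 for all genes, and 0.22 with the density covariate. Markers of projection neurons had higher values in 6 of 6 (median 0.32), with sums of 454.9 to 808.4 CPM in D1 EGFP and 579.7 to 1044 in D1 RXRa. Astrocyte markers had lower values in 5 of 5 (median -0.06), with sums of 133.1 to 142.7 CPM and 127.4 to 140.8. None of these markers passed or was at 0, and their part in the members' values was not tested.

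The D1 libraries overlapped between vectors for each member. Penk had 59.2, 69.8, 45.8, 23.3 and 47.9 CPM in D1 female EGFP 1 to 5, and 134, 65.6, 85.1 and 66.1 in D1 female RXRa 1, 2, 4 and 5. In males it had 57.8, 128.6, 75.9, 30.1 and 41.6 CPM in EGFP 1 to 5, and 212, 52.5, 62.5 and 84.7 in RXRa 1, 2, 3 and 5. RXRa 1 was the highest library in each sex, and without it the male log2 fold change was 0.01. Pdyn had 26.2 to 49.9 CPM in D1 female EGFP and 42.9 to 65.7 in D1 female RXRa, and 23.1 to 45.0 and 24.2 to 53.8 in males. Tac1 had 21.7 to 48.0 and 43.3 to 59.1 CPM in females and 24.5 to 58.4 and 29.9 to 74.5 in males. For Nts the ranges were 4.77 to 6.92 and 5.56 to 6.70 CPM in females and 4.09 to 6.39 and 4.14 to 6.85 in males. Cartpt had 2.72 to 5.36 and 4.13 to 7.12 CPM in females and 3.24 to 4.44 and 2.47 to 6.91 in males.

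**Figure D4:**
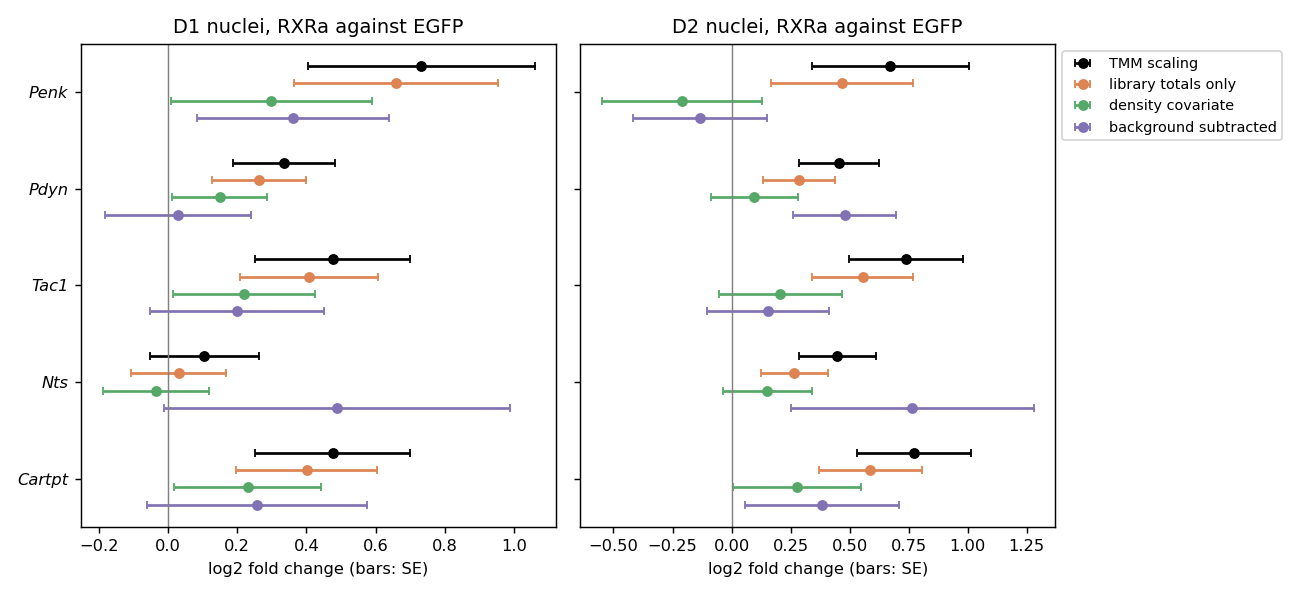
Log2 fold change of RXRa against EGFP in D1 (left) and D2 (right) nuclei under 4 settings, with bars of 1 SE and horizontal axes of different extent. In D2, Penk goes from 0.67 with TMM scaling to -0.21 with the density covariate and -0.13 with background subtracted, and Tac1 from 0.74 to 0.21 and 0.15.

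By sex no member passed. In D1 female, D1 male, D2 female and D2 male the members called were 0, where 0% of all genes were called by edgeR, and 0 by DESeq2. At an unadjusted p under 0.05 there were 1, 0, 0 and 3 members, beside 6.28%, 3.02%, 25.2% and 19.7% of all genes. The largest value was that of Cartpt in D2 males, from 3.29 ± 0.766 CPM (SD, n = 5) to 7.19 ± 4.22 (SD, n = 4). On the log2 scale this was 1.07 (SE 0.33), with an edgeR adjusted p of 0.179. Without male RXRa 1 it was 1.39 (edgeR adjusted p 0.0165), and Tac1 (1.13, edgeR adjusted p 0.0217) and Pdyn (0.78, edgeR adjusted p 0.0325) passed too.

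No difference between effects was found. Called members were 0 for RXRa in D2 against D1, for RXRa in females against males in D1 and for the same in D2, where 0% of all genes were called in each, and 0 had an unadjusted p under 0.05. DESeq2 called 0 members in each as well. The D2 effect minus the D1 effect was largest in Nts, at 0.34 (SE 0.23, edgeR adjusted p 0.619). The calls of D2 are thus not shown to differ from D1.

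Females and males under EGFP were compared as a control of the members' levels. In D1 0 members were called, where 3.77% of all genes were, and in D2 0, where 3.46% were. DESeq2 called 0 in each, and 0 had an unadjusted p under 0.05. The largest difference was that of Penk in D1, at -0.43 (SE 0.44, edgeR adjusted p 1.00), with 49.2 ± 17.4 CPM in females (SD, n = 5) and 66.8 ± 38.6 in males (SD, n = 5). The shares of all genes include the X chromosome, while the members are autosomal. Genes with 0 counts in bulk had a median female to male ratio of 1.91 (D1) and 2.08 (D2) on X. On autosomes it was 0.972 and 1.01. The part of X-linked genes in the shares was not tested.

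In bulk tissue Penk, Pdyn, Tac1 and Cartpt had lower values with RXRa and Nts a higher one, and none passed the test. The 0 of 5 members stand beside 3.7% of 18579 genes. DESeq2 called 0 as well, and 2 members, Penk and Nts, had an unadjusted p under 0.05, beside 21.5% of all genes. In bulk, fewer cells of a type and less RNA per cell cannot be told apart. Markers of cell types also differed between the bulk groups. Those of projection neurons were lower in 6 of 6 (1 passed, Bcl11b), with sums of 3691 to 4258 CPM in GFP and 3383 to 3813 in RXRa, and those of D2 neurons in 4 of 4 (1 passed, Gpr6, at -0.39, SE 0.08, edgeR adjusted p 0.0385), with 703.4 to 829.1 and 601.3 to 677.9. Oligodendrocyte markers were lower in 5 of 5 (0 passed, median -0.34), with sums of 4275 to 4812 CPM and 2586 to 4471. Of 5 astrocyte markers 3 had higher values and 2 lower ones, with sums of 1812 to 2333 CPM and 1906 to 2773. Of these 1 passed, Aqp4, as higher (0.57, SE 0.13, edgeR adjusted p 0.0478). Summed markers of cortical neurons, a neighbouring tissue, ranged from 7.71 to 736 CPM in GFP and from 72.3 to 547 in RXRa. None of these markers was at 0, and the part of the markers in the members' values was not tested.

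Penk had 1103, 1132, 936 and 1117 CPM in bulk GFP 1 to 4 and 997, 989.8, 888 and 921 in bulk RXRa 1 to 4. GFP 3 lay among the RXRa libraries, and the other controls above them. On the log2 scale the change was -0.18 (SE 0.08, edgeR adjusted p 0.222). For Nts the bulk values were 19.03, 12.3, 10.6 and 16.4 CPM in GFP and 22.6, 25.9, 17.98 and 16.2 in RXRa. Of these, 2 RXRa libraries were above every control. Its log2 fold change was 0.51 (SE 0.20, edgeR adjusted p 0.195).

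Cartpt had 57.8, 69.3, 51.8 and 88.5 CPM in bulk GFP and 70.2, 33.3, 52.0 and 52.7 in bulk RXRa, which on the log2 scale was -0.36 (SE 0.22, edgeR adjusted p 0.389). Pdyn had 340.2, 327, 275 and 377 CPM in GFP and 332, 328, 267 and 278 in RXRa (-0.13, SE 0.11, edgeR adjusted p 0.523). Tac1 had 195, 228, 278 and 278 CPM in GFP and 263, 207, 258 and 229 in RXRa (-0.03, SE 0.12, edgeR adjusted p 0.913), and its sign turned with library totals alone. In all 3 the groups overlapped.

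**Figure D5:**
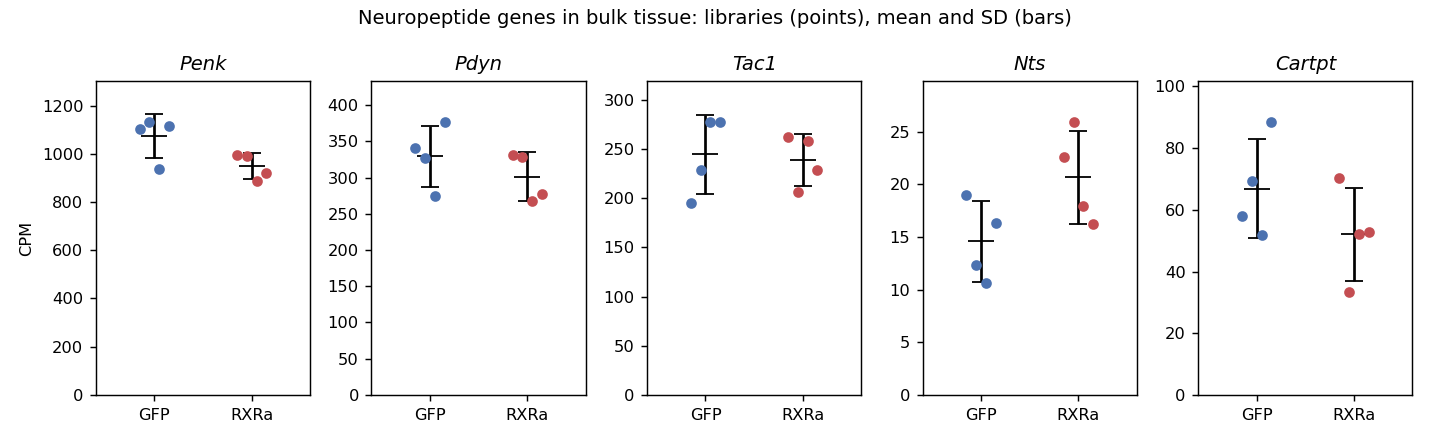
CPM of the 5 genes in the 4 GFP (blue) and 4 RXRa (red) bulk libraries, with mean and SD. The groups overlap for every gene, and 3 of the 4 GFP libraries lie above all RXRa libraries for Penk.

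The enzymes that cut and finish the precursors were taken as a list of 16 genes with the cargo of dense-core vesicles. In D2 with RXRa 14 of the 16 had higher values and 2 lower ones, with a median log2 fold change of 0.33. Of the list 5 were called higher and 1 lower, beside 14.9% and 7.14% of all genes called in these directions. The convertase Pcsk2, which cuts precursors at basic pairs, rose by 0.49 (SE 0.12, edgeR adjusted p 0.0125) and its helper Scg5 by 0.53 (SE 0.15, edgeR adjusted p 0.0152). The carboxypeptidases Cpd and Cpe, which trim the basic residues left behind, rose by 0.28 (SE 0.07, edgeR adjusted p 0.0120) and 0.38 (SE 0.12, edgeR adjusted p 0.0204). Pcsk1n, a precursor named as an inhibitor of the other convertase, (1.02, SE 0.32, edgeR adjusted p 0.0254) was the remaining gene called higher, and Cadps2, which primes vesicles for release, was lower by -0.20 (SE 0.06, edgeR adjusted p 0.0252). With the density covariate each of these had an adjusted p of 1.00. In bulk tissue 3 of the 16 had higher values and 13 lower ones. There 0 were called higher and 1 lower, the vesicle protein Scg2 at -0.38 (SE 0.06, edgeR adjusted p 0.0132), with 550.3 ± 31.2 CPM in GFP and 423 ± 15.4 in RXRa (SD, n = 4 each). In D1 0 of 16 passed, and in D2 against D1 under RXRa 1 did, Cpd (0.27, SE 0.07, edgeR adjusted p 0.0302). The share of all genes called was 3.7% in bulk and 8.36% in D2 against D1 under RXRa.

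Receptors of the members' peptides were a list of 9. In D2 with RXRa 5 had higher values and 4 lower ones. There 3 were called higher and 0 lower, the opioid receptor genes Oprk1 (0.55, SE 0.16, edgeR adjusted p 0.0188), for dynorphins, and Oprd1 (0.27, SE 0.07, edgeR adjusted p 0.0160), for enkephalins, and the sorting receptor Sort1, which binds neurotensin (0.35, SE 0.10, edgeR adjusted p 0.0142). Of all genes 14.9% were called higher there, and each of the 3 had an adjusted p of 1.00 with the density covariate. In D2 against D1 under RXRa Oprd1 (0.57, SE 0.08, edgeR adjusted p 1.77e-05) and the neurotensin receptor gene Ntsr2 (0.50, SE 0.14, edgeR adjusted p 0.0357) were higher, where 8.36% of all genes were called. None of the 8 tested in bulk and none of the 9 in D1 with RXRa or in D2 against D1 under EGFP passed.

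Of 9 peptide-cleaving enzymes 2 were called higher in D2 with RXRa, Thop1 (0.36, SE 0.12, edgeR adjusted p 0.0294) and Ece2 (0.25, SE 0.09, edgeR adjusted p 0.0392), and 1 in bulk, Ace (0.49, SE 0.11, edgeR adjusted p 0.0473). Of all genes 14.9% were called higher in D2 with RXRa, and 3.7% were called in bulk. With the density covariate Thop1 and Ece2 had an adjusted p of 1.00. In D2 against D1 under RXRa 1 was called higher, Mme (0.22, SE 0.07, edgeR adjusted p 0.0461), where 8.36% of all genes were called. The list of 20 other neuropeptide genes, such as Sst, Npy and Cck, had 0 called in bulk (13 tested), D1 or D2 with RXRa, and 1 called lower in D2 against D1 under RXRa, Tac2 (-0.37, SE 0.10, edgeR adjusted p 0.0300). Its median in D2 with RXRa was -0.08, where the members' median was 0.67. The 20 genes summed to 66.3 to 78.3 CPM in D2 female EGFP and 67.7 to 71.7 in female RXRa. In D2 males the sums were 60.2 to 78.1 CPM with EGFP and 68.0 to 79.0 with RXRa. Gal, Grp, Avp, Oxt, Hcrt, Pmch and Ucn were not tested in bulk. Expected background was not worked out for this list, so the 2 medians do not compare genes of like level.

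Among 15 transcription factors of the CRE, AP-1 and striatal identity families, D2 with RXRa had 8 higher and 7 lower values. Of these 5 were called higher and 1 lower, Ebf1, a factor of D1 neurons (-0.21, SE 0.05, edgeR adjusted p 0.0125). Creb1, which binds the CRE, was higher by 0.23 (SE 0.07, edgeR adjusted p 0.0258), Kcnip3, a repressor named for the Pdyn promoter, by 0.39 (SE 0.11, edgeR adjusted p 0.0143), and the striatal factors Bcl11b and Foxp1 by 0.43 (SE 0.12, edgeR adjusted p 0.0148) and 0.46 (SE 0.12, edgeR adjusted p 0.0147). Of all genes 14.9% were called higher and 7.14% lower, and each of the factors named had an adjusted p of 1.00 with the density covariate. Bcl11b and Foxp1 were lower in bulk, by -0.31 (SE 0.07, edgeR adjusted p 0.0359) and -0.29 (SE 0.06, edgeR adjusted p 0.0427), and Crem was higher there, by 0.44 (SE 0.10, edgeR adjusted p 0.0414). Between populations under EGFP, Sp9, a factor of D2 neurons, was higher in D2 (0.68, SE 0.13, edgeR adjusted p 0.00638) and Isl1, one of D1 neurons, lower (-0.51, SE 0.09, edgeR adjusted p 0.00473). Under RXRa 2 factors were called higher in D2, Sp9 (1.08, SE 0.13, edgeR adjusted p 5.74e-06) and Creb1 (0.24, SE 0.07, edgeR adjusted p 0.0414), and 2 were called lower, Isl1 (-0.85, SE 0.10, edgeR adjusted p 2.09e-06) and Ebf1 (-0.32, SE 0.05, edgeR adjusted p 0.00129). The share of all genes called was 3.7% in bulk, 0.121% in D2 against D1 under EGFP and 8.36% under RXRa.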

How the data were processed

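The authors deposited raw gene counts, whole numbers per gene and library. The submitters' processing notes name FastQC, Trimmomatic, HISAT2, Picard, featureCounts (Subread) and GRCm38, with no versions. Per the labels' protocols, bulk RNA was poly(A)-selected and RNA of sorted nuclei was rRNA-depleted total RNA. The annotation release and the use of strand and introns are not given in the sources used here.

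Counts were fitted with edgeR 4.0.16 (R 4.3.3), by quasi-likelihood with TMM scaling, filterByExpr and Benjamini-Hochberg adjustment over all genes tested (18579 bulk, 43902 sorted), and a gene was called at an adjusted p under 0.05. The 35 sorted libraries with a group were fitted together as 8 groups, and the 8 bulk libraries as 2. In all 14 comparisons were tested. A sorted library in no group and 2 vector entries were left out of the fits. Of 55487 identifiers 55394 matched GENCODE M21. The smallest chi-square per degree of freedom over 72 pairs of replicates was 1.79, so none was counted as a duplicate.

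Alternatives were RLE factors, library totals alone, other filters, DESeq2 1.42.0, a replicate block, the silent-gene density as a covariate, only the groups compared, background subtraction with limma 3.58.1 on log2 of the subtracted values, and each library left out. The scripts were tested on simulated data. The members and gene lists were chosen with earlier results of these data known. Genes outside the members were named where they passed the test, up to 4 a list and comparison by adjusted p, or as the 3 with the highest correlation of log2(CPM + 1) to a member. Drd1, Drd2 and Adora2a served as label checks. In D2 with RXRa, Pcsk1n, Cadps2, Creb1 and the marker genes were named after their values were seen.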

Additional observations from a re-analysis of the deposited data

Results flagged for a closer look

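Of 50 sets of values (each gene in each group), 4 had a library far from the others of its group, where chance gives about 1 in 20. Penk in bulk GFP 3 was 936 CPM, with the other 3 controls at 1103 to 1132. Pdyn in D1 female RXRa 1 was 65.7 CPM, with the others at 42.9 to 45.8, and Tac1 in the same library was 59.1 CPM, with the others at 43.3 to 44.6. Cartpt in D1 male EGFP 3 was 4.44 CPM, with the others at 3.24 to 3.51.

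Pdyn was 14.04 CPM in the D2 female library that belongs to no group, above the 4 D2 female EGFP libraries at 9.50 to 10.6. The 4 D2 female RXRa libraries ran from 8.72 to 14.6 CPM, a range that holds this value, and the library had 2941 counts of the vector-encoded RXRa. That library entered no comparison.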

How the results depend on the processing

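The Penk and Pdyn differences between D2 and D1 kept their direction and their call under all alternatives run. Over all members and comparisons, single-library omissions apart, 519 values kept their direction and side of the threshold, 4 passed newly, 21 no longer passed and 24 changed sign. The cause of the changes below was not tested. Cartpt rests on 32 to 166 counts per D2 library, and Nts on 74 to 205.

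Members called in D2 with RXRa were 1 with library totals, the replicate block or the compared groups alone, and 0 with the density covariate or background subtraction. Genes called in bulk were 1565 with DESeq2 and 0 with the replicate block. In D2 with RXRa they were 0 with the covariate and 2547 with the compared groups alone. In D2 against D1 they were, under EGFP, 91 (DESeq2), 203 (covariate) and 134 (compared groups alone), and under RXRa 1114 (totals), 5701 (DESeq2), 236 (replicate block), 1286 (covariate) and 34 (compared groups alone). Leaving out 1 library gave 9 to 1016 genes in bulk, 0 to 14766 in D2 with RXRa, 118 to 9886 in D2 against D1 under RXRa, 0 to 5 members in D2 with RXRa and 0 to 3 in D2 males.

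With the density covariate, signs turned for Nts in D1 (-0.035) and D1 females (-0.093), for Penk in D2 (-0.21), D2 females (-0.19) and D2 males (-0.23), and for Pdyn (-0.10) and Cartpt (-0.039) in D2 females. They also turned in the D2 minus D1 effect for Pdyn (-0.053) and Tac1 (-0.013), and in the female minus male effect for Penk (-0.14), Tac1 (-0.14) and Cartpt (-0.14) in D1 and Penk (0.035) in D2. With background subtracted Penk in D2 was -0.13. Tac1 in bulk was 0.0069 with totals. Cartpt in D2 against D1 under EGFP was 0.0091 (RLE), 0.0017 (totals), 0.0050 (mean CPM of at least 1), 0.0145 (DESeq2), 0.063 (covariate) and 0.0084 (compared groups alone). Nts in the female minus male effect was 0.0033 (mean CPM of at least 1) and 0.0078 (replicate block) in D1 and -0.0074 (replicate block) in D2.

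Without 1 library, values of changing sign ran from -0.13 to 0.032 for Tac1 in bulk, -0.011 to 0.23 for Nts in D1 males, -0.083 to 0.13 for Cartpt in D2 against D1 under EGFP, and -0.26 to 0.23 for Penk in the D2 minus D1 effect. In the female minus male effect they ran in D1 from -0.17 to 0.82 (Penk), -0.15 to 0.35 (Tac1), -0.13 to 0.11 (Nts) and -0.18 to 0.24 (Cartpt), and in D2 from -0.43 to 0.40 (Penk), -0.48 to 0.19 (Tac1) and -0.12 to 0.27 (Nts). Between the sexes under EGFP they ran in D1 from -0.27 to 0.13 (Tac1) and -0.14 to 0.13 (Cartpt), and in D2 from -0.64 to 0.065 (Penk) and -0.12 to 0.24 (Nts).

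Control and RXRa libraries of the same population and sex were set against each other by replicate number. Of 19 same-numbered pairs 8 had a correlation of deviations over 0.1, with a median of 0.018 and a range from -0.65 to 0.83. Of 73 pairs with different numbers 34 did, with a median of -0.0058 and a range from -0.77 to 0.74. These values gave no sign of pairing, but do not exclude it. Shared numbers between D1 and D2 or between the sexes were not examined.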

Other observations

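A D2 female library whose title and vector label name different vectors was put in no group. It had 2941 counts of the vector-encoded RXRa, and its CPM values were 358 for Penk, 14.04 for Pdyn, 23.6 for Tac1, 5.75 for Nts and 4.36 for Cartpt.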
